A study of Mus musculus with 7 samples.

Results

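The nuclear Nduf genes encode most of the subunits of mitochondrial complex I and several of the proteins that assemble it. They were the rows of the count table whose symbol begins with Nduf, leaving out symbols that end in -ps, which gave 48 of 21965 genes. RNA had been sequenced from mouse hippocampus 1 month after induction, in 4 libraries from NIHHL mice (noise-induced hidden hearing loss, exposed to noise of 110 dB for 2 h) and 3 from Control mice (blank control). The labels name no strain, sex, age or batch. Nor do they say whether libraries came from different animals, and the tests rest on library-to-library spread that may be technical. Of the 48 genes, 47 had enough counts to be tested. The exception was Ndufb11b, a paralog of the Ndufb11 subunit, which had 0 counts in the NIHHL libraries and 1 count in all in the Control libraries.

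Complex I is the entry point of the respiratory chain. Its matrix arm takes electrons from NADH and hands them through a flavin and a row of iron-sulfur clusters to ubiquinone, and its membrane arm pumps protons. The core of the membrane arm is encoded by the mitochondrial genome, while the core of the matrix arm and all accessory subunits come from nuclear genes. Neurons depend on this chain for the ATP that keeps ion gradients and synaptic transmission going.

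Values are CPM (counts scaled to the library size, with edgeR's TMM factors), and log2 fold changes are NIHHL minus Control from edgeR's quasi-likelihood test, fitted over all genes and adjusted by the Benjamini-Hochberg method. Total counts per library were between 14871367 and 24515138, and 45 of the 48 genes had at least 100 counts in every library. The others were Ndufb11b, Ndufa4l2 and Ndufaf6.

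The mean was lower in NIHHL than in Control for 44 of the 47 tested genes (93.6%), where 50.1% of all 14417 tested genes had a negative log2 fold change. The median log2 fold change of the Nduf genes was -0.12, against -4.54e-04 over all tested genes, and the median difference of the group means was -7.76%. No Nduf gene passed the test: the lowest adjusted p was 0.996 by edgeR, and 0 of all genes passed (percentage called 0). Unadjusted edgeR p-values under 0.05 were found for 523 of all genes (3.63%), and DESeq2 called 4 genes, none of them an Nduf gene. At that unadjusted threshold 1 Nduf gene was lower, Ndufaf5 (2.13% of 47), beside 1.31% of all genes, and 0 were higher, beside 2.32% of all genes.

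**Figure D1:**
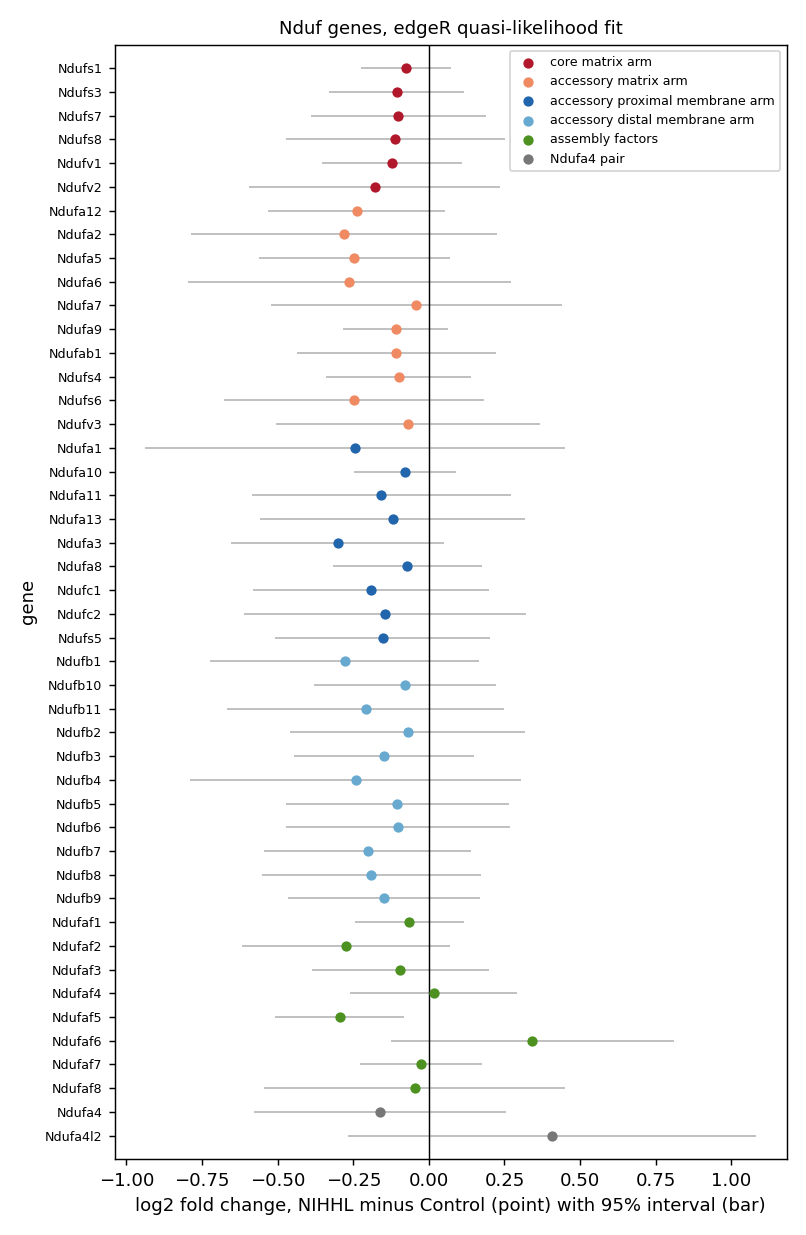
Log2 fold change of 46 tested Nduf genes, NIHHL minus Control, with its 95% interval from the edgeR fit; genes run down the page by role, marked by colour. Of the 46 points, 43 lie below 0, and the interval of Ndufaf5 is the only one that does not reach 0.

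The direction of the median changed on leaving out Control replicate 2, and on leaving out no other single library. The median log2 fold change was 0.0086 without Control replicate 2, with 20 of 47 genes lower, and -0.06 without NIHHL replicate 4, with 39 lower. Leaving out both gave a median of 0.10 with 10 of 47 genes lower. Both are the extreme libraries for the Nduf genes, so an upward shift on leaving them out was built into that choice. Leaving out Control replicate 1 gave -0.26. All 37 core and accessory subunits had their highest value in Control replicate 2, and 34 of the 37 had their lowest in NIHHL replicate 4. Between Control replicates 2 and 1 the median Nduf gene differed 1.5-fold, with a range from 0.756-fold to 2.07-fold, and 43 of 47 genes were higher in replicate 2. The range within NIHHL and the range within Control were both larger than the difference between the groups for 42 of 47 genes. That count was not made over all genes, so it does not set the Nduf genes apart. Summed choroid plexus markers were at 8530, 654, 4712 and 4361 CPM in NIHHL replicates 1 to 4 and at 201, 7014 and 1509.5 CPM in Control replicates 1 to 3. They were highest in NIHHL replicate 1 and in Control replicate 2, and within Control the libraries stood in the same order as for the Nduf genes, whereas NIHHL replicate 4 was not the lowest NIHHL library. The part of these markers in the Nduf values was not tested.

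**Figure D2:**
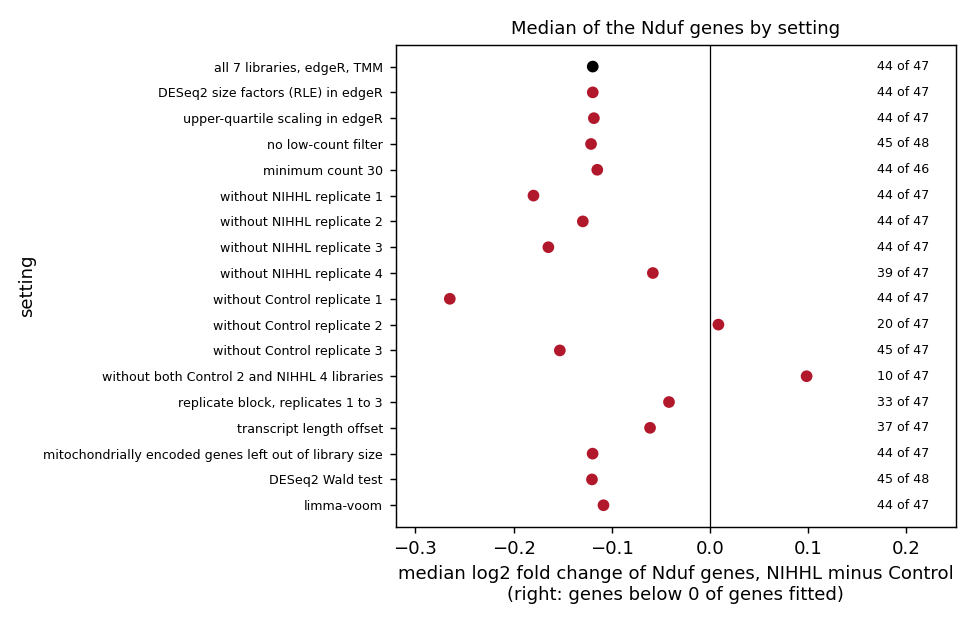
Median log2 fold change of the Nduf genes, NIHHL minus Control, under each setting (points; black is the reported fit), with the number of genes below 0 at the right. Medians lie above 0 without Control replicate 2 and without both Control 2 and NIHHL 4, and stay below 0 under the other settings.

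**Figure D3:**
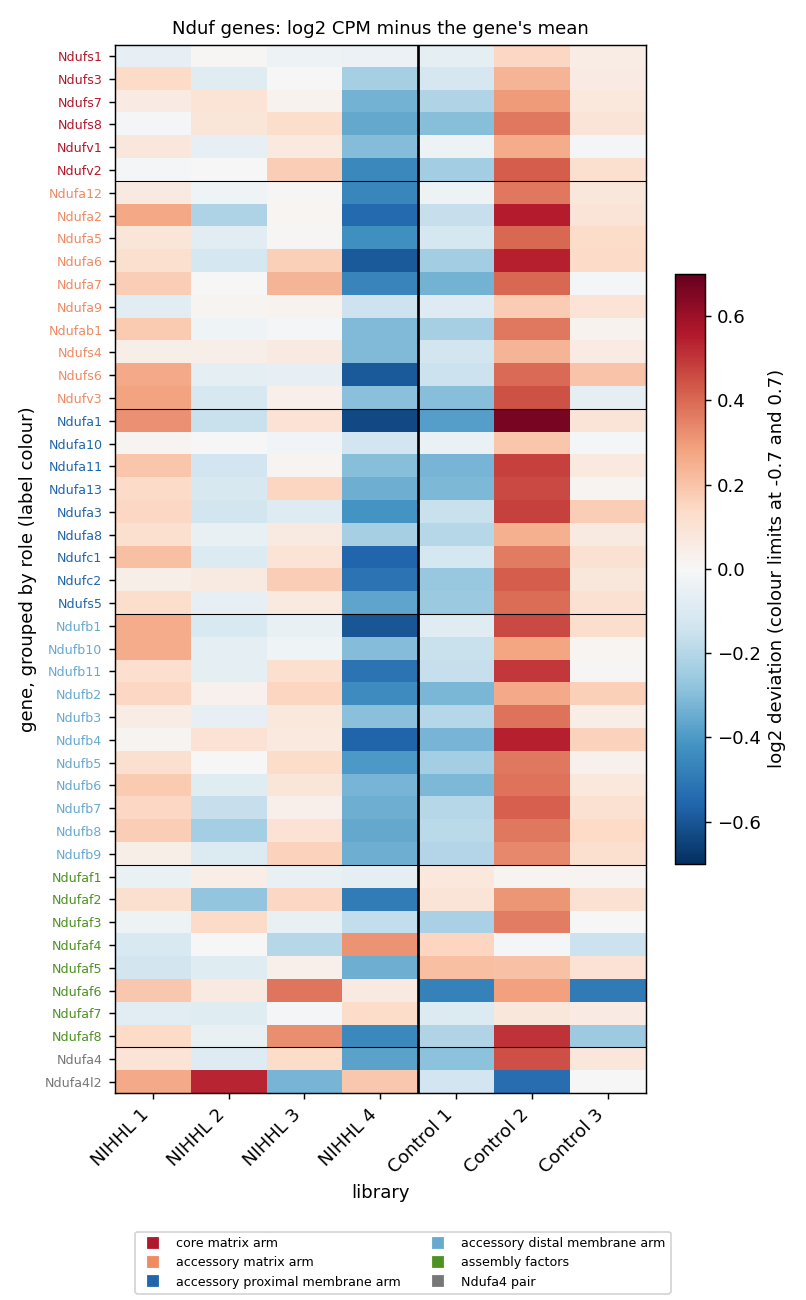
Log2 CPM of 46 tested Nduf genes minus each gene's mean over 7 libraries, with NIHHL libraries left of the black line and Control libraries right of it; genes are grouped by role. NIHHL 4 is blue and Control 2 is red through the subunits, and 7 of the 8 assembly factors also lie above their own mean in Control 2.

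Libraries differed in the same way over other short transcripts. The median transcript of the tested Nduf genes was 861 bases long, and 29 of 47 (61.7%) were at most 1000 bases, against 7.28% of all tested genes. In NIHHL replicates 1 to 4 the median log2 deviation of the Nduf genes from their own means was 0.11, -0.06, 0.06 and -0.34, and in Control replicates 1 to 3 it was -0.20, 0.37 and 0.07. The 636 other genes of at most 1000 bases and at least 10 CPM had medians of 0.05, -0.01, 0.06 and -0.25 in NIHHL and -0.14, 0.27 and 0.04 in Control. The 4841 other genes over 3000 bases deviated in the opposite direction, by 0.08 in NIHHL replicate 4 and -0.07 in Control replicate 2. The 636 short genes were lower in NIHHL in 84.7% of cases, with a median log2 fold change of -0.10. With a length-dependent offset for each library, the Nduf median was -0.06 and 37 of 47 genes were lower.

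**Figure D4:**
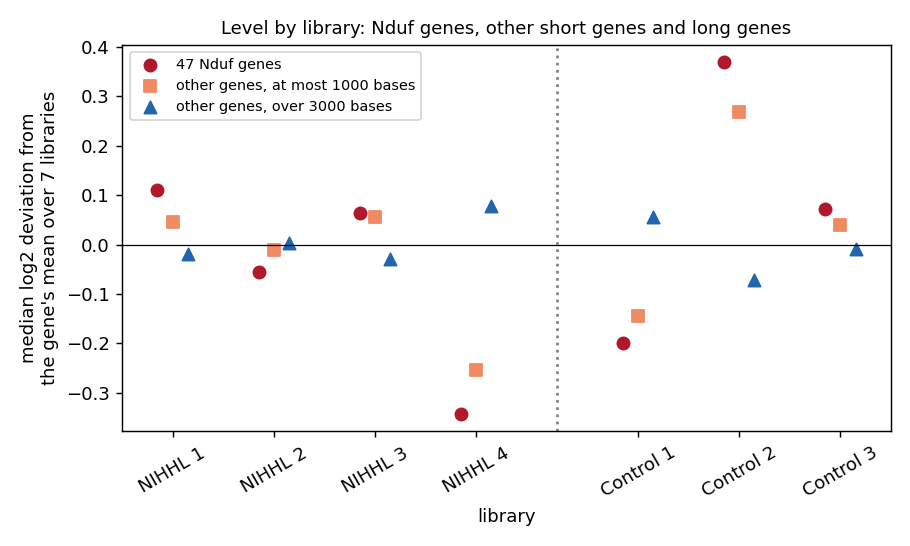
Median log2 deviation per library of the 47 tested Nduf genes (circles), 636 other genes of at most 1000 bases (squares) and 4841 other genes over 3000 bases (triangles), each gene measured against its own mean over 7 libraries. Nduf and other short genes are highest in Control 2 and lowest in NIHHL 4, and long genes show the reverse.

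Among the Nduf genes themselves, shorter transcripts had more negative log2 fold changes (Spearman correlation 0.47 across 47 genes, which share the same libraries and are not independent). The same correlation was 0.38 across the 8382 tested genes with a length and a mean log2 CPM above 4. The 4 Nduf genes of at most 500 bases had a median log2 fold change of -0.25, against -0.20 for all 53 genes in that length class with at least 10 CPM. The 25 Nduf genes of 500 to 1000 bases had -0.15 against -0.10 for 610 genes, and the 12 of 1000 to 2000 bases had -0.11 against -0.05 for 1984 genes. These classes of all genes include the Nduf genes with at least 10 CPM. The Nduf medians carry no such limit, and Ndufa4l2, Ndufaf6 and Ndufaf8 lie below it.

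**Figure D5:**
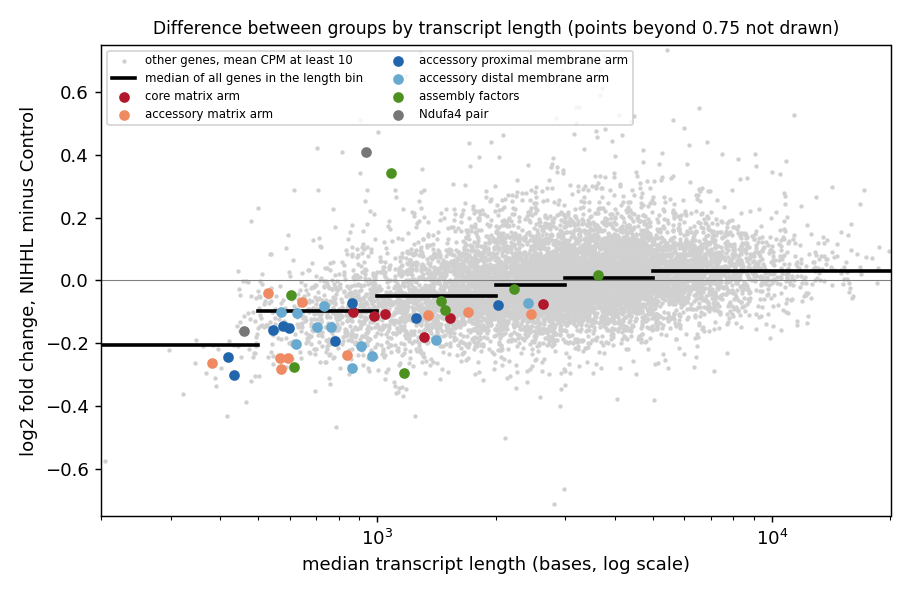
Log2 fold change, NIHHL minus Control, against median transcript length in bases (log axis); grey points are other genes with at least 10 CPM, coloured points are 46 Nduf genes by role, and black lines are medians of all genes with at least 10 CPM in each length bin. The bin medians run between -0.20 in the shortest bin and 0.03 in the longest, and most Nduf genes lie at the short end.

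The 7 nuclear core subunits include those that carry the redox centres. All 7 had lower means in NIHHL, and their median log2 fold change was -0.11. Ndufv1, which binds NADH and the flavin, stood at 131, 119.6, 131 and 101 CPM in NIHHL replicates 1 to 4 and 121, 149 and 123 CPM in Control replicates 1 to 3 (log2 fold change -0.12, SE 0.11). Its partner Ndufv2, an iron-sulfur protein, stood at 164, 165, 186 and 121 CPM in NIHHL replicates 1 to 4 and 139, 222 and 178 CPM in Control replicates 1 to 3 (log2 fold change -0.18, SE 0.18). For both, the groups overlapped, NIHHL replicate 4 was lowest and Control replicate 2 highest.

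Ndufs1, the largest subunit of the complex and a carrier of iron-sulfur clusters, had 164, 172, 166 and 166 CPM in NIHHL replicates 1 to 4 and 162, 189 and 176 CPM in Control replicates 1 to 3 (log2 fold change -0.08, SE 0.07). Here NIHHL replicate 4 did not stand apart, and Control replicate 1 was the lowest library. The Ndufs1 transcript, 2626 bases, was the longest of the core subunits. The accessory subunit Ndufab1, at 2447.5 bases, had its highest value in Control replicate 2 and its lowest in NIHHL replicate 4. Both lengths are medians over annotated transcripts, and the part of length in these values was not tested. Ndufs3, a scaffold subunit without a cluster, had 93.7, 80.5, 85.7 and 72.8 CPM in NIHHL replicates 1 to 4 and 78.6, 101 and 88.99 CPM in Control replicates 1 to 3 (log2 fold change -0.11, SE 0.10). Its groups overlapped.

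Ndufs7 holds the last iron-sulfur cluster before ubiquinone, and was at 48.8, 50.2, 47.7 and 37.3 CPM in NIHHL replicates 1 to 4 and 40.6, 57.6 and 49.4 CPM in Control replicates 1 to 3 (log2 fold change -0.10, SE 0.13). Ndufs8, a ferredoxin-like subunit, was at 65.9, 70.5, 72.2 and 51.8 CPM in NIHHL replicates 1 to 4 and 54.1, 85.8 and 70.6 CPM in Control replicates 1 to 3 (log2 fold change -0.11, SE 0.16). NIHHL replicates 1 to 3 lay inside the Control range for both. Each core subunit named here had an adjusted p of 0.996 (edgeR).

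Accessory subunits of the matrix arm numbered 10, and all 10 had a lower mean in NIHHL. Their median log2 fold change was -0.17 (range -0.28 to -0.04). Ndufa12, which takes its place late in assembly, was at 96.97, 91.2, 93.5 and 67.9 CPM in NIHHL replicates 1 to 4 and 90.8, 120.0 and 98.2 CPM in Control replicates 1 to 3 (log2 fold change -0.24, SE 0.13). Ndufa5 was at 49.2, 43.96, 46.7 and 34.4 CPM in NIHHL replicates 1 to 4 and 42.7, 61.4 and 50.8 CPM in Control replicates 1 to 3 (log2 fold change -0.25, SE 0.14). In both, Control replicate 1 lay below NIHHL replicates 1 to 3, so the groups overlapped. The list also holds Ndufs4, whose loss in mice gives a Leigh syndrome model, at 63.8 ± 7.42 CPM in NIHHL (SD, n = 4) and 68.3 ± 8.72 CPM in Control (SD, n = 3). Ndufab1, the mitochondrial acyl carrier protein, was at 69.01 ± 9.51 CPM in NIHHL (SD, n = 4) and 74.3 ± 15.5 CPM in Control (SD, n = 3).

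The proximal membrane arm had 9 accessory subunits. All had lower means in NIHHL, and the median was -0.15 on the log2 scale. Ndufa3 had the most negative value of any Nduf gene (log2 fold change -0.30, SE 0.16, 95% interval -0.66 to 0.05). Its levels were 36.7, 30.4, 31.2 and 24.9 CPM in NIHHL replicates 1 to 4 and 29.9, 46.4 and 37.4 CPM in Control replicates 1 to 3, with Control replicate 1 below NIHHL replicates 1 to 3. Ndufc1 was at 26.4, 21.3, 24.4 and 15.5 CPM in NIHHL replicates 1 to 4 and 20.97, 29.4 and 24.6 CPM in Control replicates 1 to 3 (log2 fold change -0.19, SE 0.17). Ndufa1, an X-linked subunit needed for assembly, had the largest fold between Control replicates 2 and 1 of the Nduf genes, at 2.07.

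The distal membrane arm had 11 accessory subunits, and in NIHHL all 11 had lower means (median log2 fold change -0.15). Each of the 11 had its highest value in Control replicate 2 and its lowest in NIHHL replicate 4. Ndufb1 was at 38.7, 29.998, 31.1 and 21.3 CPM in NIHHL replicates 1 to 4 and 30.4, 44.5 and 35.2 CPM in Control replicates 1 to 3 (log2 fold change -0.28, SE 0.20). Ndufb7 was at 48.4, 39.2, 44.9 and 34.5 CPM in NIHHL replicates 1 to 4 and 38.1, 58.6 and 47.1 CPM in Control replicates 1 to 3 (log2 fold change -0.20, SE 0.15). For Ndufb1, NIHHL replicate 1 exceeded Control replicates 1 and 3. The symbol Ndufb1 belongs to a gene that the GENCODE M21 annotation still names Ndufb1-ps.

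The 8 assembly factors, which build complex I and are not part of the finished enzyme, had log2 fold changes from -0.30 to 0.34, against -0.30 to -0.04 for the subunits. Per kilobase of transcript their Control means were between 3.37 and 26.0 CPM, below every core subunit, which had 56.5 to 137 CPM per kilobase in Control. Their median log2 fold change was -0.06, and 6 of 8 were lower in NIHHL. Control replicate 2 was the highest library for 3 of the 8 and NIHHL replicate 4 the lowest for 4. Over the 8 genes, the median log2 deviation from a gene's own mean was -0.12 in NIHHL replicate 4 and 0.24 in Control replicate 2, which were the extremes among the 7 libraries. Ndufaf1, Ndufaf3, Ndufaf7 and Ndufaf8 had log2 fold changes between -0.09 and -0.03.

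Ndufaf5 was the Nduf gene with the smallest p. In human cells its product hydroxylates an arginine of NDUFS7 during early assembly. Its levels were 24.6, 25.4, 27.6 and 21.2 CPM in NIHHL replicates 1 to 4 and 31.1, 31.004 and 28.9 CPM in Control replicates 1 to 3. All 4 NIHHL libraries lay below all 3 Control libraries, which among the Nduf genes was so for this gene alone (2.13% of 47, beside 2.37% of all genes tested). The reverse, all NIHHL libraries above all Control libraries, was found for 0 Nduf genes, beside 2.84% of all genes tested. The log2 fold change was -0.30 (SE 0.10, 95% interval -0.51 to -0.08), with an unadjusted p of 0.0108, rank 93 of 14417, and an adjusted p of 0.996 by edgeR. Unlike the subunits, Ndufaf5 had nearly equal values in Control replicates 1 and 2. Its log2 fold change was -0.21 without Control replicate 2 and NIHHL replicate 4, and -0.25 with the length offset.

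Ndufaf2, a chaperone related to Ndufa12 that leaves before Ndufa12 joins, was at 12.1, 9.25, 12.4 and 7.96 CPM in NIHHL replicates 1 to 4 and 11.9, 13.8 and 12.1 CPM in Control replicates 1 to 3 (log2 fold change -0.27, SE 0.16). NIHHL replicates 1 and 3 overlapped the Control values. Ndufaf8, which in human cells stabilises NDUFAF5, was at 9.24 ± 2.03 CPM in NIHHL (SD, n = 4) and 9.497 ± 3.005 CPM in Control (SD, n = 3), and its groups overlapped.

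Only 3 tested Nduf genes had a higher mean in NIHHL. Ndufaf6, which human cells need for the module built around ND1, had 4.69, 4.31, 5.34 and 4.31 CPM in NIHHL replicates 1 to 4 and 2.97, 5.03 and 2.92 CPM in Control replicates 1 to 3 (log2 fold change 0.34, SE 0.21). Control replicate 2 lay among the NIHHL values and the other Control libraries lay below all of them; without it the log2 fold change was 0.67, with an adjusted p of 0.9998 by edgeR. Ndufaf4, which works with Ndufaf3, had 25.1, 27.1, 23.5 and 33.6 CPM in NIHHL replicates 1 to 4 and 29.9, 26.8 and 24.3 CPM in Control replicates 1 to 3 (log2 fold change 0.02, SE 0.13), and NIHHL replicate 4 was its highest library. Ndufaf4 has the longest transcript of the Nduf genes, at 3632 bases.

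The third was Ndufa4l2, a hypoxia-induced relative of Ndufa4. It was at 1.24, 1.49, 0.826 and 1.18 CPM in NIHHL replicates 1 to 4 and 0.944, 0.713 and 1.04 CPM in Control replicates 1 to 3 (log2 fold change 0.41, SE 0.31), from counts of 14 to 27 per library, and the groups overlapped. Ndufa4 itself, first described in complex I and later found to be a subunit of cytochrome c oxidase, was the most abundant Nduf gene per kilobase, with 404 CPM per kilobase in NIHHL and 452 CPM per kilobase in Control. Its CPM values were 205, 180.4, 209.9 and 149 CPM in NIHHL replicates 1 to 4 and 158, 262 and 203 CPM in Control replicates 1 to 3 (log2 fold change -0.16, SE 0.18). The Ndufa4 values followed the subunits, with Control replicate 2 highest and NIHHL replicate 4 lowest.

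Promoter windows, 250 bases before to 50 after the RefSeq start, were matched for 41 of the 48 genes in 43 windows (RefSeq, GRCm38.p6). They were searched on both strands for letters that stand for factors known to serve respiratory genes. The core of the site read by nuclear respiratory factor 1 (NRF1), spelled GCGCA, any base, then GCGC, was in 10 of 43 windows (23.3%), in 8.81% of the 14352 windows of tested genes and in 4.603% of all 32851 windows. A YY1 motif, AANATGGCG, was in 8 windows (18.6%), in 4.34% of windows of tested genes and in 2.38% of all windows. The ETS motif CCGGAAG was in 6 windows (13.95%), in 15.4% of windows of tested genes and in 8.86% of all windows. The TATA letters TATAAA were in 5 windows (11.6%), in 7.20% of windows of tested genes and in 13.6% of all windows. These motifs do not overlap one another in the windows shown, and a match is a description of the letters only.

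Windows of 3 genes are printed on the gene's strand, with NRF1, YY1 and TATA matches in capitals, because they set the gene whose groups did not overlap beside a gene that was not lower and a core subunit. The Ndufaf5 window lies at chr2:140170396-140170695 on the plus strand, and its NRF1 match begins at base 267 of the window. The Ndufaf4 window lies at chr4:24897833-24898132 on the plus strand and holds the same 10 letters from base 138. The Ndufs7 window lies at chr10:80249199-80249498 on the plus strand, with a TATA match from base 152 and a YY1 match from base 275.
Ndufaf5: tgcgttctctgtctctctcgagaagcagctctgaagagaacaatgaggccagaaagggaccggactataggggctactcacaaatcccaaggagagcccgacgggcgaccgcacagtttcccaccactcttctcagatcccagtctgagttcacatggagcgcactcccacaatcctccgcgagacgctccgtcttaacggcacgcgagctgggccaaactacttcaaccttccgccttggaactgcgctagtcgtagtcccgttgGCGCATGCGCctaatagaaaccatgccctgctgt
Ndufaf4: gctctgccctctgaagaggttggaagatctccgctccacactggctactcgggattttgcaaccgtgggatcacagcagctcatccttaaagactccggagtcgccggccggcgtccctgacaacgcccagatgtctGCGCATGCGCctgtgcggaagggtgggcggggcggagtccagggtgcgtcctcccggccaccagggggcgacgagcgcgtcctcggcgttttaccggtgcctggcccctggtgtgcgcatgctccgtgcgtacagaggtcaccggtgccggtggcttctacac
Ndufs7: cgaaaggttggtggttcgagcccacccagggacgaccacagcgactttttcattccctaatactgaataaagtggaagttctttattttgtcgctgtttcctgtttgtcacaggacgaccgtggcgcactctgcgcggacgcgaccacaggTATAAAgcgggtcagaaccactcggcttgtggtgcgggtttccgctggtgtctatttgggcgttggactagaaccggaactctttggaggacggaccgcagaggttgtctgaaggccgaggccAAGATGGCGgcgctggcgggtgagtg

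The other genes of complex I and of oxidative phosphorylation were read from the same fit. All 7 mitochondrially encoded subunits of complex I had lower NIHHL means (median log2 fold change -0.07). Among them mt-Nd1, which contributes to the ubiquinone pocket, was at 7291, 7096, 6977 and 6876 CPM in NIHHL replicates 1 to 4 and 7893, 8598 and 7622 CPM in Control replicates 1 to 3 (log2 fold change -0.19, SE 0.07, adjusted p = 0.996 by edgeR). All its NIHHL values lay below all its Control values, as did those of 2.37% of all genes tested. The summed level of the 7 mitochondrial genes was 28722 CPM in NIHHL replicate 4, the highest of the NIHHL libraries, and 28986 CPM in Control replicate 2, the highest of all.

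Assembly factors with other names were lower in 7 of 12 cases, with a median log2 fold change of -0.01; Lyrm2 had -0.23 (SE 0.21) and Tmem70, a membrane arm assembly protein, -0.10 (SE 0.11). Nuclear subunits of complexes II to V were lower in 43 of 47 tested cases, with a median of -0.15. Their median transcript was 680 bases. Like the Nduf genes, their summed level was highest in Control replicate 2 (10132 CPM) and lowest in NIHHL replicate 4 (6933 CPM). Cox6a2, the muscle-type isoform of a cytochrome oxidase subunit, had -0.37 (SE 0.17) at low means of 3.68 CPM in NIHHL and 4.74 CPM in Control. Atp5me of ATP synthase had -0.36 (SE 0.18). Regulators of mitochondrial biogenesis were lower in 4 of 7 cases, with a median of -0.01: Gabpa, an ETS factor, had 0.13 (SE 0.13) and Tfam, which packages mitochondrial DNA, -0.03 (SE 0.07). None of these genes passed over all genes (edgeR, adjusted p of 0.996 for each one named here).

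All 6 markers of hippocampal excitatory neurons were counted in every library, with summed levels of 1879 to 2141 CPM in NIHHL and 1858 to 2178 CPM in Control. General neuron markers were lower in 3 of 4 cases (summed 3637 to 4266 CPM in NIHHL and 3897 to 4407 CPM in Control) and were high in NIHHL replicate 4 and Control replicate 1, where the Nduf genes were low. Oligodendrocyte markers were higher in 6 of 6 cases (7656 to 9118 CPM in NIHHL and 6683 to 8412 CPM in Control), ependymal markers in 4 of 4 (40.1 to 52.9 CPM in NIHHL and 24.1 to 36.5 CPM in Control) and choroid plexus markers in 6 of 6 (654 to 8530 CPM in NIHHL and 201 to 7014 CPM in Control). Astrocyte markers were higher in 5 of 5 cases, microglial in 3 of 5, endothelial and pericyte in 2 of 5, meningeal in 2 of 3 and markers of other brain regions in 2 of 4 tested. Among the markers of other brain regions, Tcf7l2 had the smallest p, with means of 4.97 CPM in NIHHL and 3.47 CPM in Control. Its log2 fold change was 0.52 (SE 0.19, adjusted p = 0.996 by edgeR). Its groups did not overlap, as for 2.84% of all genes tested that were higher in NIHHL. The gap was narrow, 4.483 CPM in NIHHL replicate 4 against 4.480 CPM in Control replicate 3. Of the other markers, ependymal Foxj1 was also higher without overlap (log2 fold change 0.64, SE 0.19). Neuronal Snap25 was lower without overlap (log2 fold change -0.18, SE 0.07), as were 2.37% of all genes tested. Both had an adjusted p of 0.996 by edgeR. Gabra6, a cerebellar granule cell marker, was not tested and had no count in NIHHL replicate 2 and Control replicate 1. The part of cell composition in the Nduf values was not tested, and in bulk tissue fewer cells of a type and less RNA per cell cannot be told apart.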

How the data were processed

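Polyadenylated RNA from mouse hippocampus was sequenced on an Illumina NovaSeq after Trizol extraction and a NEBNext Ultra library, per the labels' protocols. Estimated counts per gene, not scaled to library size, were deposited by the authors; 8 of the 48 Nduf genes carried decimals in at least 1 library. Per the submitters' processing notes the tools included StringTie 1.3.1, HISAT2, DESeq2 and Bowtie2 2.2.8, with no role stated. The sources used here give no genome build, annotation or strandedness.

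Counts were rounded to whole numbers, filtered with filterByExpr (minimum count 10), which kept 14417 genes, scaled by TMM and fitted with edgeR 4.0.16 (robust quasi-likelihood, group as the term) in R 4.3.3. SE is the fold change divided by the root of F. Calls are at an adjusted p under 0.05, over all genes. Log2 CPM carries a prior count of 2. Alternatives used limma 3.58.1, DESeq2 1.42.0, other scalings and filters, left-out libraries, a replicate block and a lowess length offset. The fit was tested on simulated counts of independent genes with larger fold changes than any Nduf gene had. That test does not bear on differences of the size seen here. Transcript lengths are medians over GENCODE M21 basic transcripts (GRCm38). By these gene models 17 Nduf genes share exon bases with another gene (Ndufb6 shares 257 of 659 with Smim27), and without strand such reads cannot be assigned; Ndufaf5 shares none.

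The members and lists were chosen with earlier results of these data known. Genes given in every library were the 7 core subunits, the 6 of smallest p, the 3 of highest CPM, those with a positive fold change, Ndufa4 and Ndufa4l2, and the 2 of smallest p per role, 18 in all after leaving out 1 gene that is counted but not reported here; Ndufs4, Ndufab1, Ndufa1 and Ndufaf8 fall outside this rule and were chosen after their values were seen. Of each other list, up to 2 genes of smallest p are named. Gabra6, which was not tested and has no p, falls outside this rule.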

Additional observations from a re-analysis of the deposited data

Results flagged for a closer look

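Among the tested Nduf genes, 1 NIHHL library stood apart from the other 3 in 3 genes. Ndufs4 was at 52.7 CPM and Ndufb4 at 73.96 CPM in NIHHL replicate 4, below the others, and Ndufaf1 was at 20.9 CPM in NIHHL replicate 2, above the others. The gap to the nearest library exceeded Dixon's 95% critical value for 4 samples. By chance about 1 in 20 such groups would exceed it, and 47 genes were examined. The 47 genes share the same libraries and are not independent, and NIHHL replicate 4 was the lowest of all libraries for 39 of them.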

How the results depend on the processing

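The count of genes called over all genes was 0 in the reported fit, 4 with DESeq2's Wald test and 1 without both Control replicate 2 and NIHHL replicate 4; 0 Nduf genes were called under every alternative run. The count of lower Nduf genes ran from 20 to 45 and their median from -0.26 to 0.0086 as each library was left out. Control replicate 2 and NIHHL replicate 4 are the extreme libraries for these genes, so leaving out both shifts the median upward by construction. Leaving out both libraries gave 10 lower genes and a median of 0.10, with log2 fold changes of 0.050 for Ndufs3, 0.12 for Ndufs7, 0.15 for Ndufs8, 0.062 for Ndufv1, 0.11 for Ndufv2, 0.14 for Ndufa4, 0.078 for Ndufc1, 0.023 for Ndufb1, 0.052 for Ndufb7 and -0.10 for Ndufaf4. With each library left out, values ran from -0.22 to 0.032 for Ndufs7, -0.26 to 0.063 for Ndufs8, -0.33 to 0.0026 for Ndufv2, -0.32 to 0.047 for Ndufa4 and -0.10 to 0.093 for Ndufaf4; Ndufaf5 stayed between -0.35 and -0.23. The cause was not tested. Over all tested genes, deviations from the group mean correlated at -0.45, -0.44 and 0.06 between same-numbered libraries. Between differently numbered libraries of the 2 groups they correlated at -0.13 to 0.48, and the labels do not pair libraries. The replicate block over replicates 1 to 3 gave a median of -0.04 with 33 genes lower, 0.0043 for Ndufs7, 0.011 for Ndufs8 and -0.10 for Ndufaf4. Other scalings, filters, limma-voom and DESeq2 kept the median between -0.12 and -0.11. Nduf genes with an unadjusted p under 0.05 (edgeR) numbered 1 of 47 in the reported fit, beside 3.63% of all genes. They numbered 0 of 47 with the block, beside 2.32% of all genes. With the length offset they were 5 of 47, a larger share than the 4.98% of all genes. With 1 library left out they numbered 1 to 7 of 47, beside 2.73% to 5.51% of all genes. The 7 of 47 were found without Control replicate 1, a larger share than the 5.51% of all genes in that fit. The Nduf genes share the same libraries and are not independent.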
